A study of Homo sapiens with 2 samples.

Results

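The microRNAs miR-221 and miR-222 were examined in hCMEC/D3 cells, a line of immortalised endothelium from human brain microvessels that models the blood-brain barrier in culture. Small RNA was sequenced from 2 libraries of this line, labelled replicate 2 and replicate 8. The labels name no treatment and no second group. The members were every row whose precursor hairpin was hsa-mir-221 or hsa-mir-222, which gave 4 of 2363 rows and 2 of 1600 hairpins: miR-221-3p, miR-222-3p, miR-221-5p and miR-222-5p. The labels name no separate cultures or passages, so differences between the libraries may be technical, and every interval and test below covers counting error only.

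A microRNA gene is transcribed into a hairpin from which a short duplex is cut. The strand from the 5′ side of the hairpin is called 5p and that from the 3′ side 3p, and usually only the more abundant strand is loaded into the silencing complex in quantity. Its seed, bases 2 to 8, sets which messenger RNAs it pairs with. The 3p strands of miR-221 and miR-222 are known in endothelial cells as brakes on growth and angiogenesis through the stem cell factor receptor KIT, and in many cells they repress the cell cycle inhibitors CDKN1B and CDKN1C. Messenger RNAs were not analysed here.

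RefSeq held the mature sequence of 3 of the 4 arms. They are shown 5′ to 3′ with the seed in capitals, because the seed is what the 3p strands share and what sets miR-222-5p apart. The fourth arm is miR-221-5p.
miR-221-3p: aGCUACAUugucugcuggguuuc
miR-222-3p: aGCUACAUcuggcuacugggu
miR-222-5p: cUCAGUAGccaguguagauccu
The 3p strands were identical over the first 8 bases, so they carry the same seed, whose reverse complement, auguagc, is the site they would pair with. The search for shared seeds covered 2370 mature names in RefSeq, which include 1716 of the 2042 names in the count table. No other miRNA among them had this seed, and none shared that of miR-222-5p. Counted from 1 at the 5′ end, the 3p strands first differed at position 9 (U9C, with the base of miR-221-3p first). Over the 21 positions that both have, 11 were identical and 10 differed, so reads of the 3p strands can be told apart outside the seed. miR-221-3p has 23 bases and miR-222-3p has 21.

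Both hairpins lie on the minus strand of chromosome X in GRCh37, the build (hg19) that the submitters name. MIR221 spans chrX:45605585-45605694 and MIR222 spans chrX:45606421-45606530, with 726 bases between them. The hairpins, of 110 bases each, are shown from RefSeq (GRCh38.p14) with the mature strands listed above in capitals, to show where the arms sit.
MIR221: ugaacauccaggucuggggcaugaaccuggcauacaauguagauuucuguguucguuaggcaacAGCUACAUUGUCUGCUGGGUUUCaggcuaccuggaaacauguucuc
MIR222: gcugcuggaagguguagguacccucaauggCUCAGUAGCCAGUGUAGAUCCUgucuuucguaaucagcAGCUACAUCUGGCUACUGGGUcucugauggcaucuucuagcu
Each sequence matched GRCh37 exactly at these positions. On chromosome X, miR-221-3p maps to 45605608 to 45605630, miR-222-3p to 45606442 to 45606462, and miR-222-5p to 45606479 to 45606500. The longest run that the hairpins share, cagcuacau, has 9 bases and covers the seed of the 3p strands. On the 5′ side they share uguagau, of 7 bases.

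In GENCODE, both hairpins fall within the long noncoding host gene MIR222HG, on the same strand. Of its 4 transcripts, only MIR222HG-201 spans them, and both are intronic in it. MIR222 overlaps no annotated exon. The last 24 bases of MIR221, at its 3′ end, overlap an exon of MIR222HG-203, a short transcript that begins inside the hairpin. MIR222 begins 23147 bases and MIR221 begins 23983 bases after the annotated start of the host gene, so MIR222 is the upstream member of the pair. The map of the locus shows this order.

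**Figure D1:**
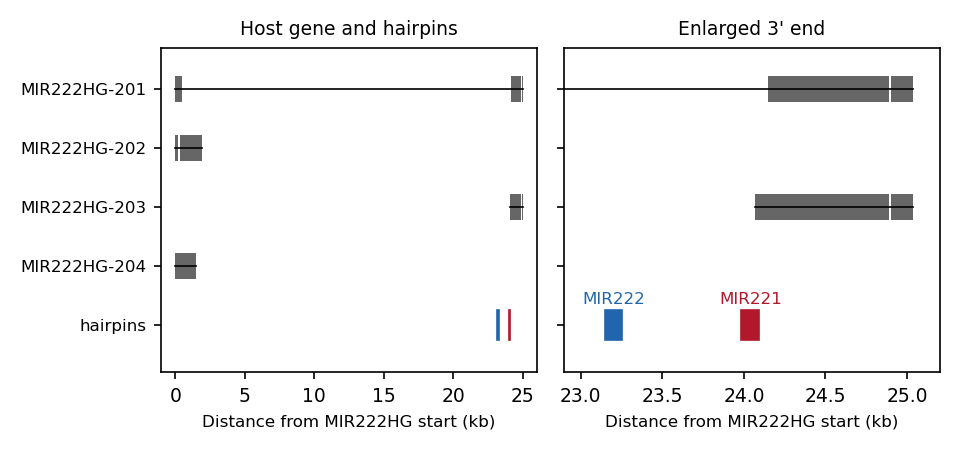
Annotated transcripts of MIR222HG (grey boxes are exons, lines are introns) and the 2 hairpins by distance from the host gene's start in kb, with the 3′ end enlarged in the right panel. MIR222 lies in the intron of MIR222HG-201, and the end of MIR221 touches the first exon of MIR222HG-203.

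The libraries had nearly the same depth, with 2721287 and 2727675 counts over 2042 mature names. Levels are given as CPM, counts scaled to these totals, and 3 counts, the limit that a count of 0 allows, correspond to 1.10 CPM in either library. CPM are not corrected for how readily a sequence was ligated and amplified, so levels of different miRNAs compare captured reads. As a check of the label, the endothelial miR-126-3p was the most abundant miRNA. The other endothelial marker, miR-126-5p, was at 694 ± 21.9 CPM and ranked 102 by mean level. By comparison, 3 of 6 blood cell miRNAs (miR-142-3p, miR-144-3p and miR-223-3p) were at 0 in both libraries. Of the others, miR-486-5p had 841 and 566 counts, miR-451a 43 and 19, and miR-142-5p 0 and 2. All 6 summed to 325 CPM in replicate 2 and 215 CPM in replicate 8. The 6 epithelial miRNAs summed to 92.2 and 42.2 CPM and the mural pair, miR-143-3p and miR-145-5p, to 835 and 393 CPM. These 3 sums were lower in replicate 8, whereas miR-222-5p, below, was higher there. Their part in the results below was not tested.

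The 3p strands were abundant and close to each other. From hsa-mir-221, miR-221-3p was counted 36193 times in replicate 2 and 35704 times in replicate 8, and ranked 19 of 2042 in both. It made up 1.33% of replicate 2 (95% Wilson interval 1.32 to 1.34) and 1.31% of replicate 8 (1.30 to 1.32), for a level of 13195 ± 149 CPM (SD, n = 2). From hsa-mir-222, miR-222-3p had 33460 and 34891 counts and ranked 21 in both libraries. Its shares were 1.23% (1.22 to 1.24) and 1.28% (1.27 to 1.29), for a level of 12544 ± 351 CPM. With library totals, the lower of the miR-221-3p values, 13090 CPM, was above the higher of the miR-222-3p values, 12791 CPM. miR-221-3p was ahead in both libraries. Together the 3p strands, with their common seed, held 25738 ± 202 CPM, or 2.56% of replicate 2 and 2.59% of replicate 8.

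The 5p strands were far lower and differed strongly from each other. miR-221-5p had 1605 and 1794 counts, a level of 624 ± 48.0 CPM, and ranked 110 in replicate 2 and 103 in replicate 8. miR-222-5p had 34 and 127 counts, or 12.5 and 46.6 CPM, and ranked 417 in replicate 2 and 270 in replicate 8. Its mean of 29.5 ± 24.1 CPM therefore has a coefficient of variation of 81.6%, against 1.13% for miR-221-3p, 2.80% for miR-222-3p and 7.70% for miR-221-5p. Across the 4 arms the order of levels was the same in both libraries, and with library totals no neighbours in that order overlapped. With the scaling of edgeR or DESeq2 the ranges of the 3p strands over the libraries did overlap. Scaling cannot change the order within a library.

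**Figure D2:**
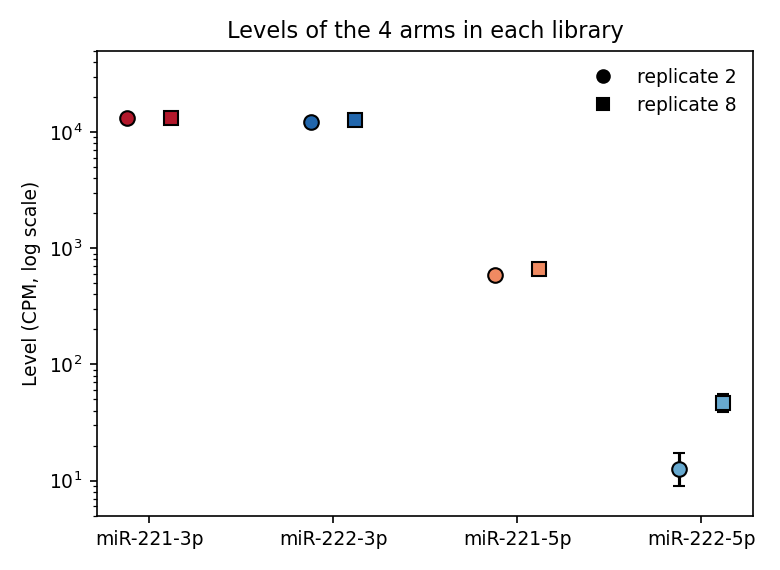
Level of each arm in CPM on a log axis, with circles for replicate 2, squares for replicate 8 and bars for the 95% Wilson interval of the count. The 3p strands lie between 12296 and 13300 CPM and miR-221-5p is at 590 and 658 CPM. miR-222-5p has the widest gap between the libraries on the log axis, at 12.5 and 46.6 CPM. The intervals of miR-222-3p and miR-221-5p also do not overlap between the libraries.

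Each arm was then compared between the libraries with an exact binomial test and Benjamini-Hochberg adjustment, over the 695 miRNAs that reached 10 counts in sum. In this comparison 34.2% of all miRNAs passed an adjusted p of 0.05, 10.8% as higher and 23.5% as lower in replicate 8, so passing is common. The share depends on abundance. Among other miRNAs with summed counts within 2-fold, 100% passed in either direction for miR-221-3p and 95% for miR-222-3p. These shares were 73.1% for miR-221-5p and 25% for miR-222-5p. Of the 4 arms, 3 passed, all as higher in replicate 8. Of all calls, 31.5% were in that direction with library totals, 46.9% with the scaling of edgeR (TMM) and 51.8% with that of DESeq2. miR-222-5p was 1.88 log2 units higher in replicate 8 (95% interval 1.34 to 2.49, exact binomial adjusted p = 8.8e-13). miR-221-5p was 0.16 log2 units higher (0.059 to 0.26, exact binomial adjusted p = 0.0060), and 0.24 with TMM and 0.27 with DESeq2 scaling. miR-222-3p was 0.057 log2 units higher (0.035 to 0.079, exact binomial adjusted p = 1.8e-06), and 0.14 with TMM and 0.17 with DESeq2 scaling, both outside that interval. The log2 ratio of miR-221-3p was -0.023 (-0.044 to -0.0019) and did not pass (exact binomial adjusted p = 0.085). Its sign turned with the other scalings, to 0.064 with TMM and 0.091 with DESeq2, and it passed with both.

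The sizes of the ratios were then set beside those of other miRNAs. The median log2 ratio of all 695 miRNAs was -0.11, and DESeq2 scaling moved that median by 0.11. Among the 19 other miRNAs with summed counts within 2-fold of miR-221-3p, the median absolute log2 ratio was 0.29, and all 19 lay farther from 0 than it did, or 14 of 19 with either TMM or DESeq2 scaling. For miR-222-3p, 14 of 20 such miRNAs lay farther from 0, or 11 of 20 with either scaling. For miR-221-5p the result turned on the scaling: 42 of 67 lay farther from 0 with library totals, 26 with TMM and 25 with DESeq2. miR-222-5p was at the other extreme: of 136 other miRNAs of like abundance, none had a log2 ratio as high, the highest being 0.83, and 3 were farther from 0, all lower in replicate 8. With TMM and DESeq2 scaling again none was as high and 3 were farther from 0.

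**Figure D3:**
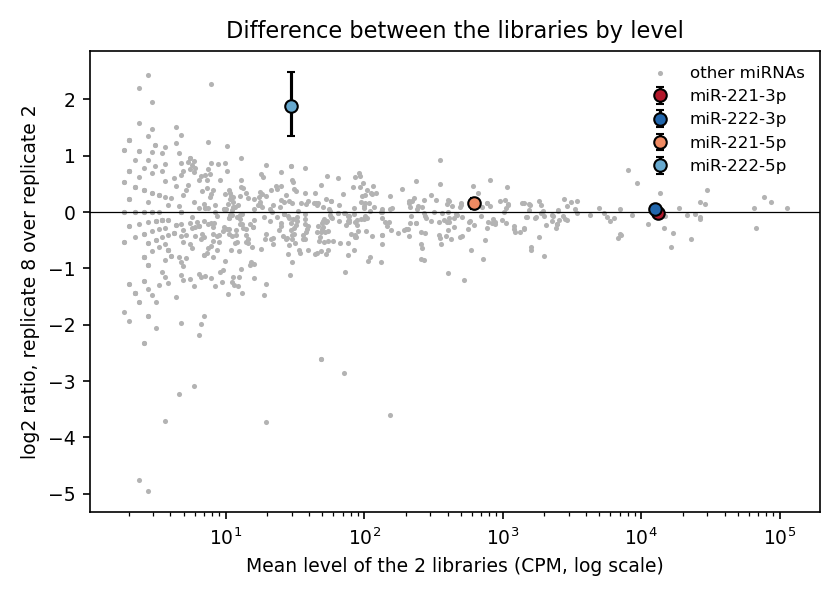
Log2 ratio of replicate 8 over replicate 2 against mean level (CPM, log axis) for the 695 miRNAs tested, with the 4 arms coloured and bars for their 95% intervals. The 3p strands and miR-221-5p lie near 0, and miR-222-5p at 1.88 lies above every miRNA of like level.

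Arm use within each hairpin was the next question. The 3p strand outnumbered the 5p strand 22.6-fold in replicate 2 and 19.9-fold in replicate 8 for mir-221. The 5p share of mir-221 was 4.25% (95% Wilson interval 4.05 to 4.45) and 4.78% (4.573 to 5.005). For mir-222 the 3p strand was 984-fold and 275-fold above the 5p strand. The 5p share of mir-222 was 0.102% (0.073 to 0.14) in replicate 2 and 0.363% (0.305 to 0.431) in replicate 8. In both hairpins the 3p strand thus dominated in both libraries, and the 5p shares of the hairpins did not overlap. Among 83 hairpins whose 3p strand was the higher in both libraries, the median 5p share was 5.31%. At or under the mean share of mir-221, 4.52% ± 0.380 (SD, n = 2), were 38 of these hairpins, and at or under that of mir-222, 0.232% ± 0.185, were 15.

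The arm share was compared between the libraries with Fisher's exact test in all 196 hairpins whose arms together reached 50 counts in replicate 2 and again in replicate 8. Of these, 20.4% passed an adjusted p of 0.05, and 10.7% passed with a higher 5p share in replicate 8. Both mir-221 and mir-222 did so. For mir-222 the odds of a 5p read were 1.83 log2 units higher in replicate 8 (Fisher's exact test, adjusted p = 9.2e-12), and its 5p share was 3.57 times that in replicate 2. For mir-221 the odds were 0.18 log2 units higher (Fisher's exact test, adjusted p = 0.0033), below the median absolute change of 0.37 over the 196 hairpins. By absolute change, mir-222 ranked 11 of all 196 hairpins. Among the 40 hairpins that passed, mir-222 had the second largest change, after let-7f-2, whose minor strand had 8 and 1 counts. With a limit that was not planned, at least 100 summed counts in each arm, mir-222 had the largest change of 81 hairpins. This comparison is within a hairpin, so library scaling does not enter it.

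Minor strands of other hairpins gave the background for miR-222-5p. Of 43 other minor strands with summed counts within 2-fold of it, 14 were higher in replicate 8, with a median log2 ratio of -0.29 and a highest value of 0.72. With TMM 15 and with DESeq2 scaling 17 of them were higher. Over all 146 minor strands with at least 10 summed counts, 56 were higher in replicate 8 with library totals, 69 with TMM and 76 with DESeq2, beside 270, 329 and 347 of all 695 miRNAs. The highest ratio among the 146 was that of miR-222-5p itself.

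**Figure D4:**
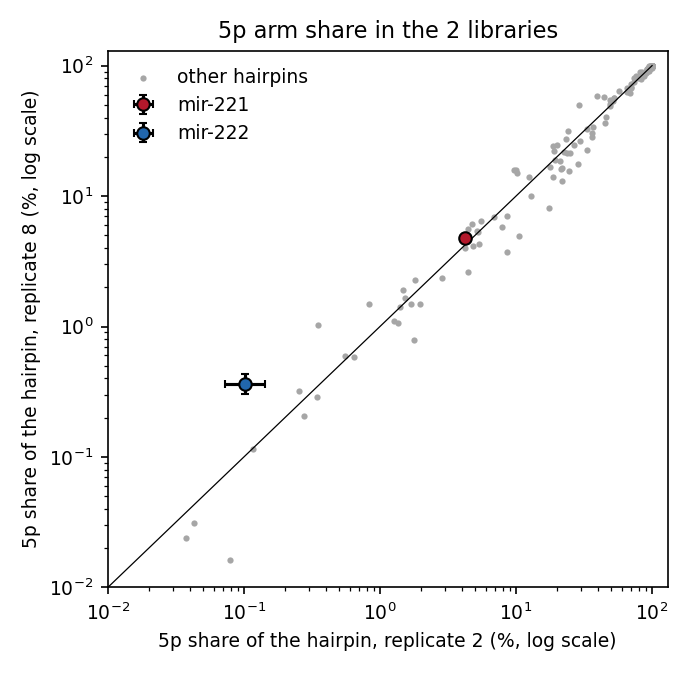
Share of the 5p strand in each hairpin's reads, replicate 8 against replicate 2, in percent on log axes. Of 196 hairpins, 184 are drawn, and the other 12 had a 5p share under 0.01% or of 0 in a library; bars are 95% Wilson intervals. mir-221 lies near the line of equal shares, and mir-222 lies above it, at 0.102% and 0.363%.

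The hairpins were also set against each other, since they are neighbours within a single host transcript. For the 3p strands, miR-221-3p was 1.08-fold above miR-222-3p in replicate 2 (95% exact interval 1.07 to 1.10) and 1.02-fold above it in replicate 8 (1.01 to 1.04). For the 5p strands, miR-221-5p was 47.2-fold above miR-222-5p (33.6 to 68.4) in replicate 2 and 14.1-fold above it (11.8 to 17.0) in replicate 8. The hairpins were therefore nearly equal in the dominant strand and an order of magnitude or more apart in the minor strand.

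Other neighbouring hairpins gave the background for this. Adjacent hairpins within 10 kb on the same strand, with at least 100 summed counts in the dominant strand of each, formed 53 pairs. Their median gap between dominant strands was 2.16 log2 units, and the gap of mir-221 and mir-222 in summed counts was 0.073. Only mir-23a and mir-27a were closer in summed counts, at 0.030. That pair, however, changed order between the libraries, with 18738 and 21675 counts in replicate 2 and 19406 and 15692 in replicate 8. A second measure, which was not planned, took the larger gap of the 2 libraries for each pair. By that measure mir-221 and mir-222 had the smallest of the 53, at 0.11, and mir-23a and mir-27a the next, at 0.31.

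The ratio of miR-221-3p to miR-222-3p changed by -0.080 log2 units from replicate 2 to replicate 8 (Fisher's exact test, adjusted p = 7.5e-07). Such a change passed in 60.4% of the pairs, and its size was small, since the median absolute change was 0.25 and only 5 pairs, mir-221 and mir-222 among them, had one of 0.080 or less. The 3 other pairs nearest in summed counts were wider apart. The ratio of miR-181a-5p to miR-181b-5p was 1.93 log2 units at mir-181a-1/mir-181b-1 and 1.86 at mir-181a-2/mir-181b-2, 2 loci that share most of these reads. At let-7a-1/let-7f-1 the ratio of let-7a-5p to let-7f-5p was 0.77 and changed by -0.41 between the libraries.

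For the minor strands the picture differed. In 25 pairs both hairpins favoured the same arm and listed both arms, and the median gap of their minor strands was 3.27 log2 units, with 0.5 counts added to each because some had none. The gap of miR-221-5p and miR-222-5p was 4.40, and 8 of the 25 pairs, this pair included, had one as large. Of the 3 other pairs whose dominant strands lay within 1 log2 unit, mir-23a and mir-27a had minor strands 3.27 apart, with 544 and 5234 summed counts. mir-224 and mir-452 had 102 and 0, and let-7a-1 and let-7f-1 had 76 and 47.

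**Figure D5:**
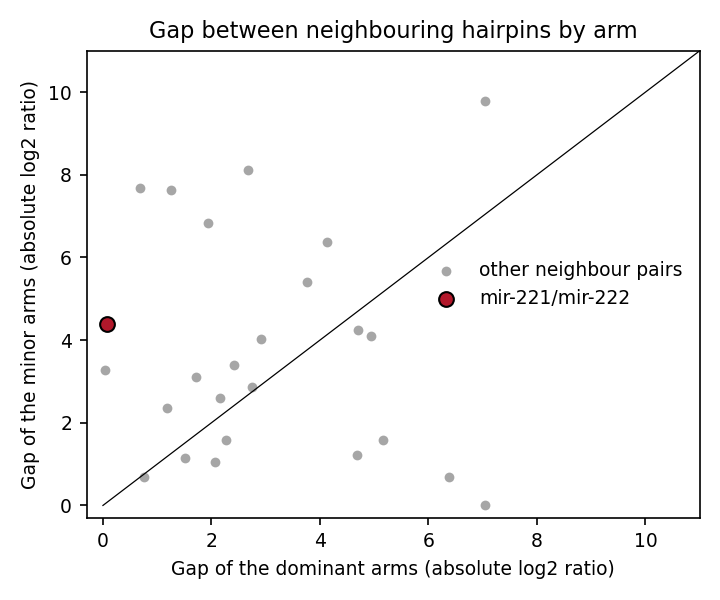
Gap between the minor strands against the gap between the dominant strands, both as absolute log2 ratios of summed counts, for 25 pairs of neighbouring hairpins that favour the same arm. The line marks equal gaps, and mir-221/mir-222 sits at 0.073 on the horizontal and 4.40 on the vertical axis.

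The predicted fold of the hairpins was computed from the sequences shown above, as a description of the strands. By RNAfold the minimum free energy was -46.5 kcal/mol for MIR221 and -53.8 kcal/mol for MIR222. In that fold 21 of the 23 bases of miR-221-3p were paired, among them all 7 of the seed. Of miR-222-3p, 18 of 21 bases were paired, among them 5 of the seed. Of miR-222-5p, 19 of 22 were paired, among them all 7 of the seed.

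The miRNAs nearest in level, by distance of log2(CPM + 1) over the 2 libraries, were the following. miR-103a-3p, at 12561 ± 312 CPM, was the nearest to both 3p strands, and each 3p strand was the second nearest to the other. The next were miR-92a-3p for miR-221-3p, at 14950 ± 462 CPM, and let-7a-5p for miR-222-3p, at 13655 ± 2228 CPM. For miR-221-5p the nearest was miR-20a-5p, at 623 ± 19.5 CPM, followed by miR-183-5p and miR-381-3p. For miR-222-5p they were let-7a-2-3p, miR-548k and miR-3613-5p, all 3 higher in replicate 8, by 0.72, 0.81 and 0.83 log2 units. The distance uses both libraries and so picks miRNAs that share the direction of miR-222-5p. Their direction is therefore no separate result. With 2 libraries, nearness in level is almost all this measure can show.

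The lists below place the 3p strands among miRNAs with known endothelial roles. Of 11 other miRNAs that restrain endothelial growth or angiogenesis, 4 were above miR-221-3p and 7 below miR-222-3p. Above were miR-100-5p (86879 ± 7489 CPM), miR-24-3p (28917 ± 2045 CPM), miR-320a (23081 ± 5304 CPM) and miR-92a-3p. Below were miR-16-5p (1540 ± 24.4 CPM), miR-17-5p, miR-217, miR-20a-5p, miR-503-5p, miR-15a-5p and, lowest, miR-34a-5p, a p53 target, at 53.6 ± 16.5 CPM. Between the libraries 3 of the 11 passed as higher in replicate 8 and 5 as lower, beside 10.8% and 23.5% of all miRNAs. Of the 20 miRNAs of like abundance to miR-222-3p, 19 passed in either direction. The median level of this list was lower, at 1435 CPM, and 73.1% of miRNAs of like abundance to miR-221-5p passed. With TMM scaling 5 of the 11 were called higher and 4 lower, and with DESeq2 6 and 4. The median log2 ratio was -0.0092 beside -0.11 over all miRNAs, and positive with TMM (0.078) and DESeq2 (0.10).

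Of 12 miRNAs that promote angiogenesis, miR-126-3p (112226 ± 4003 CPM) and miR-21-5p (77353 ± 9974 CPM) were above miR-221-3p and the other 10 below miR-222-3p. The latter ranged from miR-296-5p at 18.0 ± 5.74 CPM to let-7f-5p at 8017 ± 2858 CPM. In this list 6 passed as higher in replicate 8 and 2 as lower (7 and 2 with either TMM or DESeq2), beside the same 10.8% and 23.5%, with a median log2 ratio of 0.012 beside -0.11. miR-221-3p and miR-222-3p are also known to act on the leukocyte adhesion molecule ICAM1. Of 7 miRNAs known for roles in endothelial adhesion and inflammation, only miR-126-3p, which represses VCAM1, was above them. The other 6 ranged from miR-17-3p at 50.8 ± 2.25 CPM to miR-146a-5p, a brake on NF-κB signalling, at 6332 ± 318 CPM, and included miR-31-5p, which represses E-selectin, at 2050.3 ± 230 CPM. Of these 7, 2 were called higher and 4 lower in replicate 8, with 10.8% and 23.5% over all miRNAs. With either other scaling these were 2 and 3. Their median log2 ratio of -0.10 was near the -0.11 over all miRNAs, and was -0.016 with TMM and 0.011 with DESeq2. miR-126-3p counts in both of the last lists. Their median levels were 3662 CPM (angiogenesis) and 3459 CPM (adhesion and inflammation), and passing is more common among abundant miRNAs. In either direction 73.1% of miRNAs of like abundance to miR-221-5p passed, and 95% of those of like abundance to miR-222-3p.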

How the data were processed

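Per the labels' protocols, small RNAs in column-purified total RNA received adaptors at both ends, were reverse transcribed and amplified by PCR, and were then cut to miRNA size on a gel. The labels mention no molecular identifiers. The submitters' processing notes name CASAVA 1.9, FastQC, cutadapt, Bowtie 0.12.7 and hg19. The counter and the miRBase release are not given in the sources used here. The deposited table gives raw counts per mature miRNA and precursor, per the file headers, and RPM values that the authors scaled by a constant per library.

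For levels and the binomial test, only the highest row of a mature name with several rows was used. Arm shares and neighbouring hairpins used the rows of each hairpin. Hairpins that share a mature strand, such as let-7f-1 and let-7f-2, therefore repeat most of its reads in those comparisons. CPM used the resulting totals, and the deposited RPM served as an alternative. With 1 group there was no test between conditions, and edgeR's test was not run. Libraries were compared by a two-sided exact binomial test, and arm shares and neighbouring hairpins by two-sided Fisher's exact tests (scipy 1.17.1). Each was adjusted over all miRNAs, hairpins or pairs that met the count limits given above, with a threshold of 0.05. These tests compare 2 libraries, not conditions. Log2 ratios between libraries had 0.5 counts added. TMM factors came from edgeR 4.0.16 and size factors from DESeq2 1.42.0. The binomial and arm share tests were run on simulated counts that varied by counting error only, as these tests assume. The simulation therefore shows nothing about further variation between real libraries.

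Neighbours came from GENCODE (GRCh37) or RefSeq (GRCh38.p14), each pair within a single build, and 1528 of 1600 hairpins were located. Folds used ViennaRNA 2.7.2. Besides the members, the miRNAs named were the 3 nearest in level to each, those sharing a seed, the 3 neighbour pairs nearest in summed counts, further pairs chosen after their values were seen (mir-23a/mir-27a and mir-224/mir-452, and the hairpin let-7f-2), and lists of endothelial roles and cell type markers. In replicates 2 and 8 the muscle markers summed to 12.1 and 9.17 CPM and the neuron markers to 44.1 and 34.1 CPM. The liver marker miR-122-5p was at 235 and 252 CPM. Members and lists were chosen with earlier results of these data known.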

Additional observations from a re-analysis of the deposited data

How the results depend on the processing

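Over 20 results, 67 values were recomputed, of which 14 leave out a library. Of the other 53, 42 kept their direction and side of the threshold or stayed within their limit (1 SD, or 1.5 times for counts), 9 moved and 2 reversed. Keeping a side does not mean an equal size: the rescaled ratios of miR-222-3p and miR-221-5p were over 1.5 times those reported. Rescaling the comparisons with miRNAs of like abundance, minor strands and lists was chosen after seeing the data. With the total taken over all rows, miR-221-3p was at 11301 CPM, miR-222-3p at 10742 CPM and miR-221-5p at 534 CPM, and in deposited RPM they were at 11259, 10703 and 532. The first shift follows from the larger total, which holds repeated rows. The RPM imply denominators of 3180044 and 3205752, above the 3167238 and 3195174 counts of all rows, and what else they hold was not tested. The log2 ratio of miR-221-3p between the libraries reversed from -0.023 to 0.064 with TMM and 0.091 with DESeq2 scaling, which raise every ratio. The ratio of miR-221-3p to miR-222-3p rose from 0.073 to 0.14 log2 units when both arms of each hairpin were summed, since miR-221-5p adds more reads. With 2 libraries, leaving out 1 gives the value of the other, which lies within 1 SD by construction and shows nothing about stability. For miR-222-5p those values were 12.5 and 46.6 CPM, and for the mir-222 5p share 0.102% and 0.363%. Arm shares passed in 43 hairpins with a minimum of 10 counts over both arms and in 33 with a minimum of 500, and mir-221 and mir-222 passed in both. No paired analysis was possible because the study has 1 group. The ratio of miR-222-5p rests on 34 counts in replicate 2.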
